A study of Mus musculus with 30 samples.

Results

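Digestive enzyme transcripts rose in the developing mouse dorsal pancreas between embryonic day 14.5 (e14.5) and e15.5. Some genes that fold and export secreted proteins rose too, and transcripts of embryonic globins fell. A few endocrine genes changed, in both directions, and 2 imprinted genes were lower on some of their probe sets. This 1-day interval was compared on 12 of the 30 arrays of the series: each of 3 chips of a mouse Affymetrix set (MG-U74v2 A, B and C) was hybridised on 2 arrays per stage. The embryos were of NMRI, an outbred mouse stock, with no allele or treatment named in the labels. Dorsal pancreata only were dissected, and those of 1 litter were pooled. Each stage is 1 pool of RNA labelled in 2 reactions, so the spread between the 2 arrays of a stage is technical. A difference between the stages and one between these 2 pools cannot be told apart, and every p below measures the labelling spread only. Arrays at e12.5, e13.5 and e16.5, made in the same way, gave the daily changes before and after.

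The pancreatic epithelium at these ages branches into a tree whose tips become acinar cells, the cells that make digestive zymogens, while the trunk gives rise to duct and endocrine cells. The transcription factors PTF1A and BHLHA15 (MIST1) act in acinar cells, the first on the enzyme genes and the second on the secretory apparatus. Proteins for secretion enter the endoplasmic reticulum (ER), are folded there by chaperones and disulfide isomerases, and leave in COPII-coated vesicles for the Golgi and the zymogen granules. Primitive red cells, which carry embryonic globins, circulate in the embryo at first and are replaced by definitive red cells from the fetal liver.

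All levels are log2 values from RMA, which corrects background, makes the arrays' distributions alike and gives each probe set 1 value. A difference of 1 log2 unit is a 2-fold change. A gene was read from 1 probe set, the one with the highest mean over the 10 arrays of its chip, and was called when the limma fit gave an adjusted p under 0.05 and the change was at least 2-fold. Of 15964 genes, 75 were called higher at e15.5 (0.47%) and 12 lower (0.0752%). Counts of called members of the gene lists below are to be read beside these shares. By probe set the counts were 108 of 36701 (0.294%) and 26 (0.0708%). The median difference over all genes was -0.01. The 2 reactions of a stage had correlations of 0.997 to 0.998 within a chip, and the SD of 1 reaction was 0.074 to 0.093. Without the 2-fold minimum, 1133 genes (7.1%) were higher and 1098 (6.88%) lower. The p-values leave out the spread between pools, which alone can bring unchanged genes past the adjusted p, so counts by adjusted p alone are given below only as descriptions beside these shares. Of the markers of pancreatic tissue, Cpa1, carboxypeptidase A1, lay between 12.63 and 13.30 on the 4 arrays of chip C and was its brightest probe set at both stages. Glucagon (Gcg) lay between 11.76 and 12.23 on the same arrays. Cdh1, the epithelial cadherin, differed by 0.00 ± 0.07 (SE), and Pdx1, which marks the pancreatic epithelium, by -0.08 ± 0.07. Cdh1, at 6.90 to 6.99, and Pdx1, at 6.04 to 6.23, were above the median of chip A, 5.74.

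**Figure D1:**
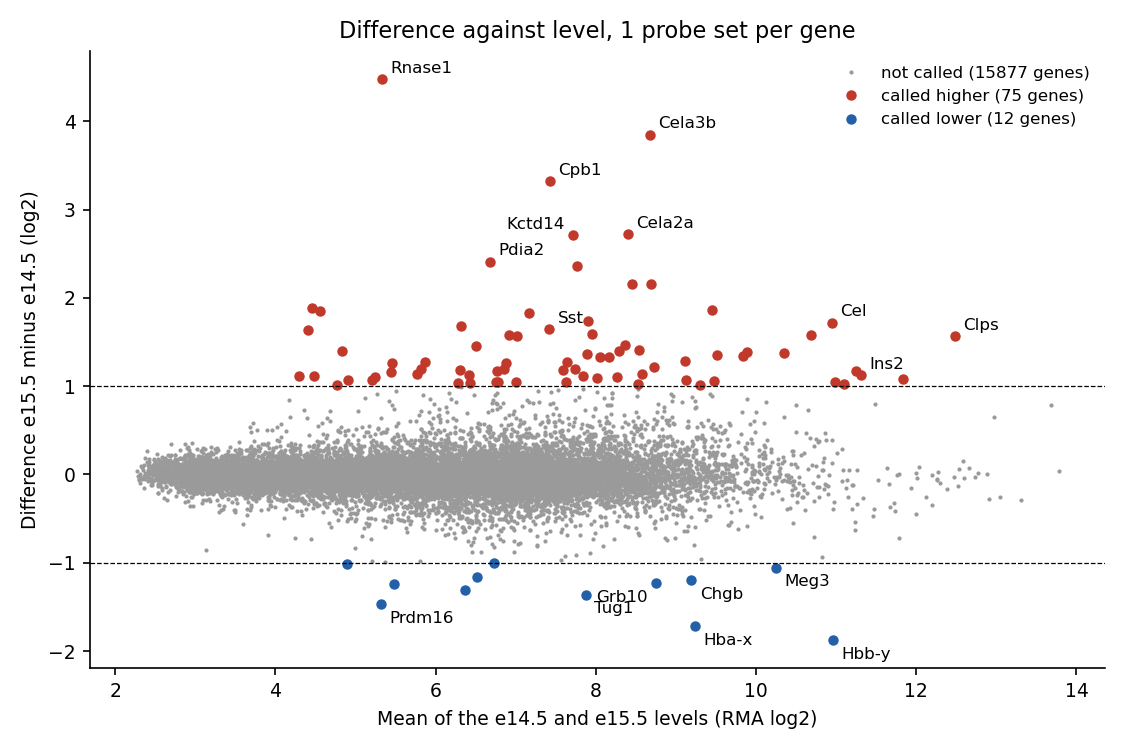
Difference between e15.5 and e14.5 (log2, vertical) against the mean level of both stages (RMA log2, horizontal) for 15964 genes, 1 probe set each; dashed lines mark 2-fold. The 75 genes called higher reach 4.48 (Rnase1), while the 12 called lower end at -1.87 (Hbb-y).

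Promoters are shown for the leading riser among the digestive enzymes (Rnase1), the acinar transcription factors (Bhlha15) and the ER genes (Ero1b). Cela2a, Dnajc3 and Herpud1, also called higher, were added after their letters were read. Cela2a and Dnajc3 carry the motifs first searched. Herpud1 carries only a second form of the ER stress element, searched after its letters were read. The sequences are RefSeq's for GRCm38.p6, 5′ to 3′ on the gene's strand, and stop before the gene's first annotated base. Gene coordinates given below are of the same build. They lie at chr14:51146768-51147017 (minus strand, ribonuclease A family member 1), chr5:144190036-144190285 (plus), chr13:12565633-12565817 (plus), chr4:141826006-141826255 (minus), chr14:118937682-118937931 (plus) and chr8:94386179-94386428 (plus). Capitals mark CANNTG and TTTCCC, the 2 half-sites of PTF1 binding, in the acinar genes, and the ER stress element in the ER genes.
Rnase1: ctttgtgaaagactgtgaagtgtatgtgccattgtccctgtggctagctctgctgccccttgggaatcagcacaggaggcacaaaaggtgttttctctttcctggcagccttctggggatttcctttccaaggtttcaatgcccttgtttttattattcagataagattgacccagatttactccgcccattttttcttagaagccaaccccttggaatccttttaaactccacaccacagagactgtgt
Cela2a: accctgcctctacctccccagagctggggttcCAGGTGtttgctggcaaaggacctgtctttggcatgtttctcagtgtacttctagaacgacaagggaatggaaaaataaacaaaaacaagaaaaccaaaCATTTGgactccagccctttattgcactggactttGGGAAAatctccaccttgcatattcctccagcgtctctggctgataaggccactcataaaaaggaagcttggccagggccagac
Bhlha15: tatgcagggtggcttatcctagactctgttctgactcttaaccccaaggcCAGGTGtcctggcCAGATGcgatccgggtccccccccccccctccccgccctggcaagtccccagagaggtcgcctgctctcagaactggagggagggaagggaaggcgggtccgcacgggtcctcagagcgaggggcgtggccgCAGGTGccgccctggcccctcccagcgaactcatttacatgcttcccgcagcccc
Ero1b: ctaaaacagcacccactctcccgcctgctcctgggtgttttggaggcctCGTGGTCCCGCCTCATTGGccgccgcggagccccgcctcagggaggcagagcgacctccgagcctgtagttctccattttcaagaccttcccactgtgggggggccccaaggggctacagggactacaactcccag
Dnajc3: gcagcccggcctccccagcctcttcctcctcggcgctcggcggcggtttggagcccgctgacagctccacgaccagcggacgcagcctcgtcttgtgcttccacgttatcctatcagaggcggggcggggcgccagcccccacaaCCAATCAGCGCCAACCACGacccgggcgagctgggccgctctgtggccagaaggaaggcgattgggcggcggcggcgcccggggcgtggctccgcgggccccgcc
Herpud1: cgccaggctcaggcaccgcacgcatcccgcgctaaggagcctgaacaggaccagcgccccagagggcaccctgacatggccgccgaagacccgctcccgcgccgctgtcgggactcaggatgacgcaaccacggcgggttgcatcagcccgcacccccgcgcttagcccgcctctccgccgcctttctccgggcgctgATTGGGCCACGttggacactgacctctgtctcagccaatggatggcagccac

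The ER stress element was searched as CCAAT and CCACG with 9 bases between, on both strands of the table's window, 250 bases before to 50 after the transcript start. Ero1b holds it on the minus strand, so that it reads as its reverse complement above, with its first base 201 bases before that start. The start used in the table lies inside the annotated Ero1b gene, so the last 65 bases before it are not shown, and the element begins at base 50 of the printed sequence. Dnajc3 holds it on the plus strand, 105 bases before the start. Of 48 ER genes with a promoter in the table, 9 (18.8%) held this element, against 37 of 27025 promoters in all (0.137%). The 9 were Hspa5, Hsp90b1, Calr, Canx, Pdia6, Dnajc3, Ero1b, Creld2 and Derl3. A second form, ATTGG and CCACG with 1 base between, was searched after the Herpud1 letters were read. Herpud1 has it 52 bases before the start. Of 48 ER genes, 2 held it (4.17%), Herpud1 among them, against 12 of 27025 (0.0444%). The element was known from genes of this kind, so its share in the list is a description of the list. Hspa5 and Canx, which hold it, differed between the stages by 0.11 and -0.09 and were not called. CANNTG and TTTCCC were both present, at any spacing, in 7 of 15 digestive enzyme promoters (46.7%). Both were in 4 of the 10 from called genes (40%) and in 20.2% of all promoters. CANNTG alone is in 75% of all promoters and TTTCCC in 27.9%, and a match is a description of letters, not of a bound site. The Bhlha15 window held 3 CANNTG and no TTTCCC, and the Rnase1 window held none of the motifs. TGACGTGG, the XBP1 and ATF6 element, was in 0 of the 48 ER promoters and 0.714% of all.

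Of the 25 digestive enzyme genes listed, 17 were measured. Of these, 11 were called higher and none lower (0.47% and 0.0752% of all genes were). The median difference was 1.57 against -0.01 over all genes. In bulk tissue, more cells of a type and more RNA per cell cannot be told apart. Rnase1, pancreatic ribonuclease (chr14:51145002-51146767), read 3.06 and 3.11 at e14.5 and 7.54 and 7.60 at e15.5. Both e14.5 arrays were near the floor of chip A, whose median was 5.74, and no array of one stage came near the other stage. The rise was 4.48 ± 0.09 (limma, adjusted p = 1.41e-10), or 22.3-fold, and may be understated because the first level was dim. The Rnase1 changes of the days before and after were -0.01 and 2.86.

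Pancreatic elastase Cela3b (chr4:137421008-137430520) read 6.78 and 6.73, then 10.63 and 10.58, and so came to rank 5 among the 12411 probe sets of chip B. The Cela3b rise of 3.85 ± 0.10 was 14.4-fold (limma, adjusted p = 4.85e-12). Cpb1, carboxypeptidase B1 (chr3:20249479-20275733), read 5.75 and 5.78, then 9.12 and 9.05, a rise of 3.32 ± 0.07 or 9.99-fold. Its second probe set, on chip C and dim, gave -0.02, so the Cpb1 call rests on the probe set of chip B. Elastase 2A (Cela2a) read 7.08 and 7.01, then 9.79 and 9.74, a 6.61-fold rise (2.72 ± 0.06). A second Cela2a probe set, on chip C, read 5.88 and 5.82, then 6.61 and 6.70, a difference of 0.80 that was not called. On these probe sets the 4 enzymes had the widest gaps of the list between the stages.

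The other 7 called enzymes rose by less than 2 log2 units. Carboxyl ester lipase (Cel) read 10.10 and 10.07, then 11.80 and 11.81 (1.72 ± 0.06), and colipase (Clps), the cofactor of pancreatic lipase, went from 11.68 and 11.72 to 13.28 and 13.25 (1.57 ± 0.06). Ctrl, a chymotrypsin-like protease, rose by 1.87 ± 0.08, elastase Cela1 by 1.58 ± 0.06, the lipase-related Pnliprp1 by 1.08 ± 0.09 and kallikrein Klk1 by 1.11 ± 0.08. The Klk1 rise began from a dim 4.72 and 4.67, on a probe set of a shared-sequence design. Another Klk1 probe set, also dim, gave 0.30 and was not called. Amy2a5, pancreatic amylase, rose by 1.89 ± 0.19 from a dim 3.55 and 3.47. Its near copy Amy1, which is not a listed gene, rose by 1.85 ± 0.11, also from dim levels. Probe sets of near-identical genes can share signal, and the amylases are such genes.

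The other 6 listed enzymes were not called. Trypsinogen Prss2 differed by 0.89 ± 0.06, chymotrypsinogen Ctrb1 by 0.78 ± 0.06 and Cpa1 by 0.65 ± 0.07, each below 2-fold with an adjusted p under 0.05 in limma. At e15.5 no probe set of chip A was brighter than Ctrb1 (14.10 and 14.05). At the top of the range an array may saturate, and the differences of Ctrb1 and Cpa1 may be understated. Pnliprp2 and Ctrc differed by 0.37 each, and phospholipase Pla2g1b, at 8.05 and 7.90 then 7.92 and 7.96, by -0.03 ± 0.07.

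Other products of acinar cells were also among the rises. Of 30 measured, 12 were called higher and none lower (0.47% and 0.0752% of all genes were). The median difference was 0.68. Pdia2, a protein disulfide isomerase of the pancreas, read 5.50 and 5.45, then 7.92 and 7.86 (2.41 ± 0.07, or 5.32-fold). Serpini2, a serine protease inhibitor of exocrine pancreas, went from 7.51 and 7.71 to 9.72 and 9.80 (4.46-fold), and Fkbp11, a prolyl isomerase of the ER, from 7.34 and 7.41 to 9.59 and 9.47 (4.45-fold). Syncollin (Sycn), a zymogen granule protein, rose by 1.69 ± 0.08, the granule GTPase Rab3d by 1.40 ± 0.07 and Tmed6, of the p24 family of cargo receptors, by 1.58 ± 0.08. Second probe sets of Tmed6 (2.37) and Rab3d (1.51) were called too. Cckar, the cholecystokinin receptor through which secretion is triggered, read 8.63 and 8.56, then 9.67 and 9.65 (1.06 ± 0.07). Reg1 rose by 1.47, Tmem97 by 1.37, the stress protein gene Nupr1 by 1.36, the water channel Aqp8 by 1.28 and clusterin (Clu) by 1.01. The Aqp8 call was lost without reaction 2 of e15.5 (0.95), since that stage read 6.18 and 6.84. The granule membrane protein Gp2 differed by 0.64 ± 0.12 and the granule lectin Zg16 by 0.31 ± 0.07, neither called. The glutamine transporter Slc38a5 was the lowest of the list, at -0.75 ± 0.07 and not called. When the probe sets of each gene were averaged, 9 of the 17 enzymes and 9 of the 30 other products were still called.

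Among 12 measured acinar transcription factors, 1 was called. Bhlha15, the secretory regulator MIST1 (chr5:144190286-144194441), read 7.37 and 7.38, then 8.68 and 8.75. The Bhlha15 rise was 1.34 ± 0.08, or 2.52-fold (limma, adjusted p = 9.63e-08), after a change of 0.85 the day before. Ptf1a read 7.96 and 8.11, then 8.99 and 9.02, a difference of 0.97 ± 0.09 that fell just below 2-fold and passed it without reaction 2 of e14.5 (1.05). A second Ptf1a probe set was called at 1.38, while the other two, both dim, gave 0.32 and 0.02. Gata4 differed by 0.25 ± 0.08 on its brightest probe set and was called at 1.05 on the other. The nuclear receptor Nr5a2 (0.13 ± 0.06), Xbp1 (0.44 ± 0.09) and Rbpjl (0.04 ± 0.07) were not called, and Rbpjl was dim, at 3.52 to 3.71. Tcf12 was the lowest of the list, at -0.42 and not called. By adjusted p alone, 4 of the list were higher and 1 lower (7.1% and 6.88% of all genes were).

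**Figure D2:**
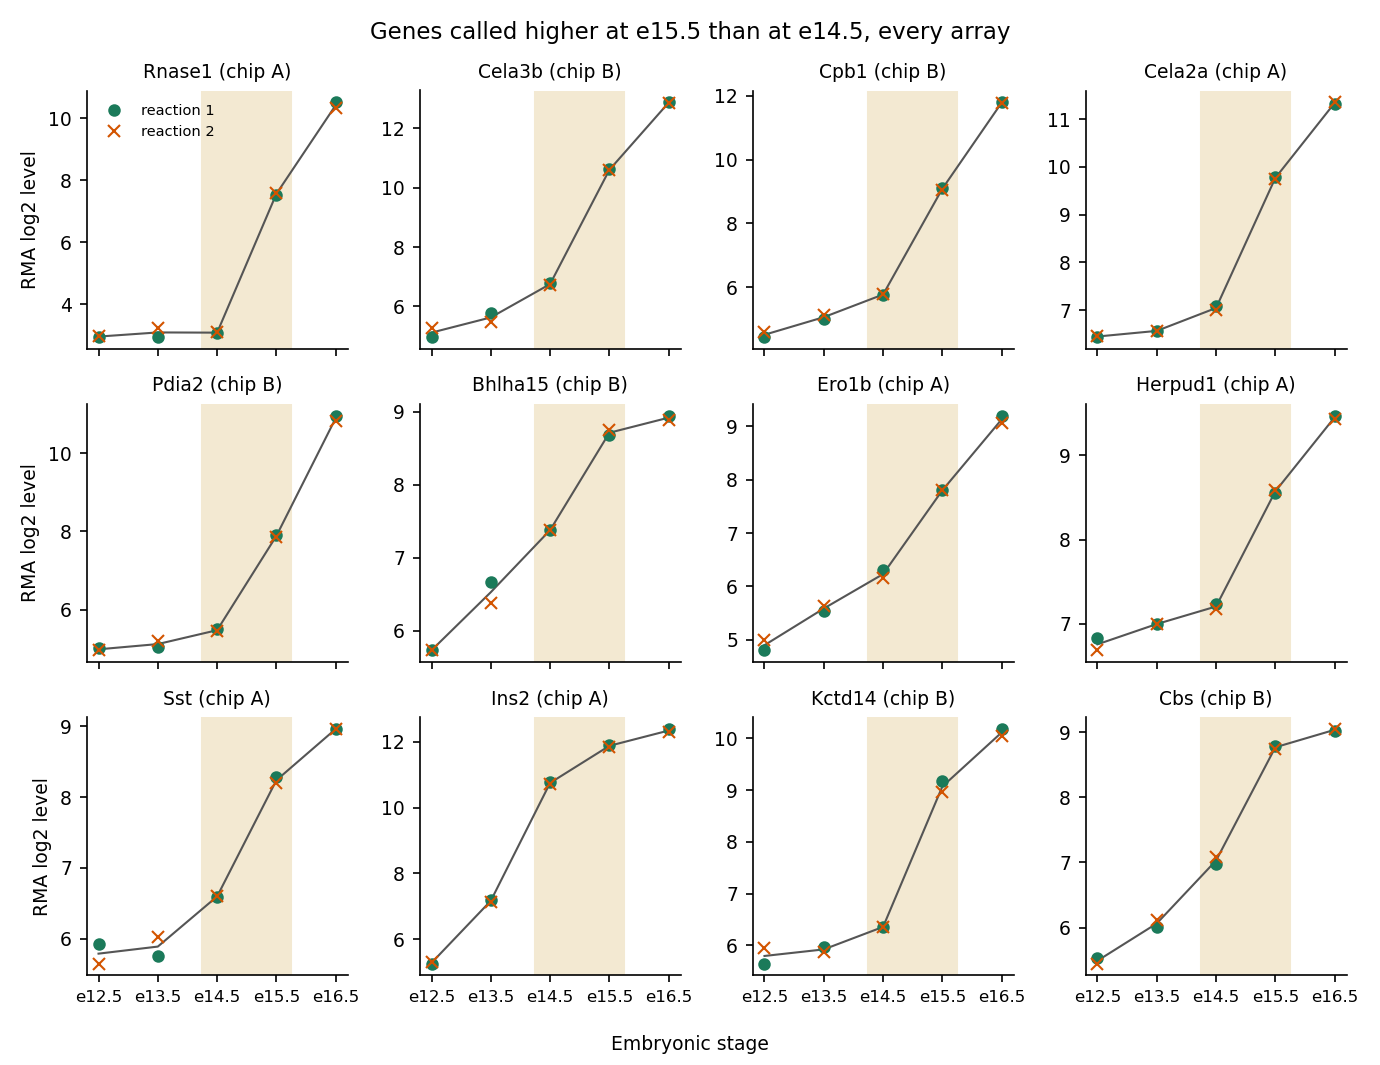
RMA log2 level (vertical) of 12 genes called higher at e15.5, at 5 stages (horizontal); circles and crosses are the 2 labelling reactions, the line joins stage means, and shading marks e14.5 and e15.5. Rnase1 had stage means of 2.96 to 3.09 up to e14.5 and read 7.54 and 7.60 at e15.5, while Ins2 had its widest step, 3.58, the day before.

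The ER folding and unfolded protein response list moved by smaller steps and mostly one way. Of 58 measured genes, 50 had a positive difference and 37 were higher by adjusted p alone (7.1% of all genes were). At 1.5-fold 15 were higher (1.4% of all genes), and at 2-fold 5 were called (0.47% of all genes). None was lower under any of these rules. The median difference was 0.39. Ero1b, an oxidase that recharges disulfide isomerases, read 6.30 and 6.16, then 7.81 and 7.80 (1.57 ± 0.08, or 2.97-fold). Herpud1, a protein of ER-associated degradation, went from 7.23 and 7.18 to 8.55 and 8.59 (1.36 ± 0.06). Edem2, which acts in the same disposal of misfolded glycoproteins, rose by 1.28 ± 0.07, the co-chaperone Dnajc3 by 1.19 ± 0.06 and the signal peptidase subunit Spcs3 by 1.06 ± 0.07. A second Edem2 probe set, on chip B at 7.39 to 7.46, gave 0.00, and a second Spcs3 probe set gave 0.33. Further Ero1b probe sets on chips B and C, both dim, gave -0.13 and 0.01, and the Dnajc3 probe sets ran from -0.28 to 1.19. With probe sets averaged, 1 of the 58 was called.

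Further members, chosen for mention after their values were seen, lay below the limit. The channel-associated Sec62 differed by 0.83 ± 0.07, Tram1 by 0.85 ± 0.08 and Sec61b by 0.73 ± 0.06. The chaperone partner Sdf2l1 differed by 0.97 ± 0.07 and Manf by 0.75 ± 0.06. Hspa5 (BiP), a main chaperone of the ER, read 9.87 and 9.92, then 10.05 and 9.96 (0.11 ± 0.07), so its stages nearly met. Canx (-0.09), P4hb (-0.08), Calr (0.04, on a dim probe set) and Ddit3 (-0.02), the stress-induced factor CHOP, were not called either. The members of the list therefore ran from the 1.57 of Ero1b to the -0.14 of Dnajc10.

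Of 47 Golgi and coat protein genes, 43 had a positive difference and 25 were higher by adjusted p alone (7.1% of all genes were). The list had 1 call and a median of 0.27. Sec24d, a cargo adaptor of the COPII coat, read 6.21 and 6.25, then 7.24 and 7.32 (1.04 ± 0.07). The Sec24d changes of the days before and after were -0.03 and -0.19. Its partner coat subunit Sec23b differed by 0.89 ± 0.07, the cargo receptor subunit Mcfd2 by 0.91 ± 0.06 and Arfgap3 by 0.84 ± 0.07, none called. Among 42 genes of amino acid metabolism and tRNA charging, 2 were called higher (0.47% of all genes were). Cbs, cystathionine beta-synthase, read 6.98 and 7.08, then 8.79 and 8.75 (1.74 ± 0.07, or 3.34-fold), and asparagine synthetase (Asns) rose by 1.34 ± 0.09. A further Asns probe set, which was dim, was called at 1.28. Those on chip C gave -0.05, -0.01 and 0.36 and did not pass the adjusted p. With probe sets averaged, 1 of the 42 was called. Bcat2, a branched-chain aminotransferase, differed by 0.99 ± 0.07.

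The endocrine genes did not move together. Of 11 islet hormone genes measured, 2 were called higher and 1 lower (0.47% and 0.0752% of all genes were). Somatostatin (Sst), the delta cell hormone (chr16:23889573-23891342), read 6.60 and 6.60, then 8.29 and 8.20, a rise of 1.64 ± 0.10 or 3.12-fold (limma, adjusted p = 1.5e-06). Insulin 2 (Ins2) read 10.78 and 10.73, then 11.91 and 11.85 (1.13 ± 0.06). That was less than its change of 3.58 over the day before, and a second Ins2 probe set gave 0.21. Cholecystokinin (Cck) fell from 7.22 and 7.23 to 6.26 and 6.19. That fall lay on the 2-fold limit itself, with an SE of 0.07. The Cck call was lost under median centring (-0.97), cyclic loess (-0.98) and a second quantile normalization (-0.97). Islet amyloid polypeptide (Iapp) differed by 0.89 ± 0.06, neuropeptide Y (Npy) by 0.79 ± 0.08, ghrelin (Ghrl) by 0.47 ± 0.08 and glucagon (Gcg) by -0.45 ± 0.07, none called.

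None of 23 endocrine transcription factors was called in either direction, but 12 were lower by adjusted p alone (6.88% of all genes were), 0 were higher, and the median was -0.28. Nkx2-2 had the largest difference: it read 8.30 and 8.36, then 7.64 and 7.55 (-0.74 ± 0.06). Neurog3, the factor that starts the endocrine programme, read 7.89 and 8.02, then 7.40 and 7.45 (-0.53 ± 0.09), and a second probe set gave -0.68. Neurod1 (-0.52), Isl1 (-0.45), Pax6 (-0.38), Pax4 (-0.28) and Insm1 (-0.21) were not called, and Neurod1 and Pax6 were dim. Of 30 granin and regulated secretion genes, 1 was called. Chromogranin B (Chgb), a granule matrix protein, fell from 9.84 and 9.75 to 8.62 and 8.57 (-1.20 ± 0.07, or 2.3-fold), after a change of 0.06 the day before. The other Chgb probe sets, both dim, gave -0.07 and -0.05, so that fall rests on a probe set of a shared-sequence design. Chromogranin A (Chga) differed by -0.03 ± 0.08, and Rab27a by 0.70 ± 0.09.

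**Figure D3:**
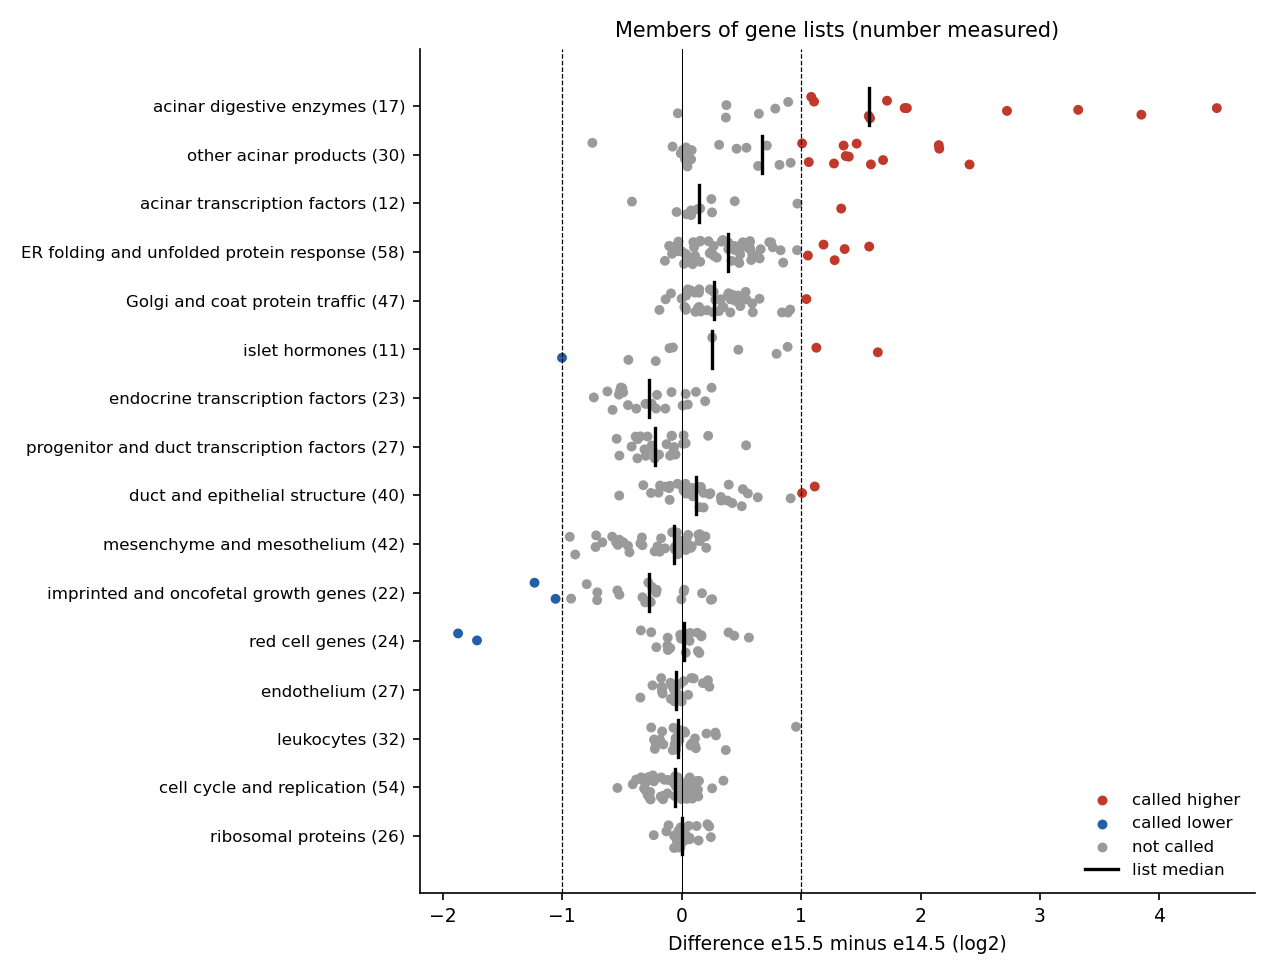
Differences between e15.5 and e14.5 (log2, horizontal) of the members of 16 gene lists, with the number measured in parentheses; each point is a gene, colour shows its call, thick bars are list medians and dashed lines mark 2-fold. The medians of the digestive enzymes (1.57) and other acinar products (0.68) lie farthest from 0.

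Progenitor and duct transcription factors gave no call among 27, with a median of -0.23. By adjusted p alone, 12 were lower and 1 higher (6.88% and 7.1% of all genes were). Sox9 differed by -0.23 ± 0.08 on its brightest probe set, which did not pass the adjusted p, and by -0.65 and -0.42 on a pair of others that did. Hes1 differed by -0.31 ± 0.07 and Onecut1 by -0.37 ± 0.08, and the largest difference was that of Prox1 (-0.55 ± 0.09), on a dim probe set. Of 40 duct and epithelial genes, Clu and the brush border protein villin (Vil1, 1.11 ± 0.14 from a dim 3.83 and 4.01) were called higher. Muc1 differed by 0.91 ± 0.07 and keratin Krt19 by 0.64 ± 0.07. No cell cycle gene of 54 was called: Mki67 read 7.92 and 7.99, then 7.95 and 7.98, and Top2a differed by 0.01 ± 0.07. By adjusted p alone, 11 cell cycle genes were lower and 2 higher. The cell cycle inhibitor Cdkn1c had the largest difference of that list (-0.54 ± 0.06). Ribosomal proteins (26 measured) gave no call and a median of 0.00, with Rps26 farthest from it among the gains (0.24 ± 0.08).

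The largest fall was that of embryonic globin. Hbb-y, an embryonic beta-like globin (chr7:103851754-103853207), read 11.88 and 11.92, then 10.01 and 10.05, a fall of 1.87 ± 0.06 on the log2 scale or 3.66-fold (limma, adjusted p = 1.52e-08). A second Hbb-y probe set gave -1.94, and one on chip B gave -0.08. Hba-x, embryonic zeta globin (chr11:32276600-32278116), went from 10.05 and 10.15 to 8.47 and 8.30 (-1.71 ± 0.07). Both were lower at each stage than at the stage before, and Hbb-y and Hba-x had changed by -0.65 and -0.69 over the previous day. The adult globins did not follow: Hba-a1 differed by 0.07 ± 0.06, Hbb-b2 by 0.39 ± 0.07 and the haem synthesis enzyme Alas2 by 0.56 ± 0.06, none called. Over the 24 measured red cell genes, 2 were called lower, 0 higher, and the median was 0.02. The mean level of that list was 7.22 on both e14.5 arrays and 7.11 on both e15.5 arrays.

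Imprinted and oncofetal growth genes gave 2 calls among 22, both lower (0.0752% of all genes were). At 1.5-fold 6 were lower (0.689% of all genes), and the median was -0.27. Meg3, a maternally expressed long noncoding RNA (chr12:109540996-109571729), read 10.75 and 10.80, then 9.74 and 9.70 (-1.06 ± 0.06). Others of the Meg3 probe sets gave -1.85, which was called, and -0.60, while the 6 others lay between -0.15 and -0.04 and did not pass. Grb10, an imprinted adaptor that binds insulin and growth factor receptors (chr11:11930499-12037428), read 9.39 and 9.36, then 8.15 and 8.13 (-1.23 ± 0.06). Another Grb10 probe set gave -1.13 and a pair of others 0.07. With probe sets averaged, neither gene was called. The growth-associated chromatin protein gene Hmga2 (-0.93 ± 0.10), Mest (-0.80 ± 0.13), Igf2bp1 (-0.71 ± 0.09) and Peg3 (-0.71 ± 0.06) did not reach 2-fold, and Igf2 differed by -0.26 ± 0.06 at 12.89 to 13.21.

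The other falls were scattered over functions. Tug1, a long noncoding RNA, went from 8.49 and 8.62 to 7.06 and 7.33 (-1.36 ± 0.09), with other probe sets at -0.57, -0.46 and 0.03. Prdm16, a transcriptional regulator, read 6.07 and 6.04, then 4.63 and 4.55 (-1.46 ± 0.26; limma, adjusted p = 0.00257). The Prdm16 probe set has a relaxed design, and its reactions differed widely at other stages, with 4.61 and 5.44 at e12.5. The Hippo pathway scaffold Amot fell by 1.31 ± 0.09 on the log2 scale, the secreted protein gene Nell2 by 1.25 ± 0.10 (another probe set gave -0.02) and the heparan sulfate proteoglycan Gpc2 by 1.02 ± 0.09. The matrix protein gene Tgfbi fell by 1.17 ± 0.07, after a larger change of -1.72 the day before. It was the single call among 52 matrix genes, of which 20 were lower by adjusted p alone (6.88% of all genes were).

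No mesenchyme or mesothelium gene of 42 was called. At 1.5-fold 5 were lower (0.689% of all genes were), and by adjusted p alone 14 were (6.88% of all genes). The list mean was 6.03 on both e14.5 arrays and 5.82 and 5.84 on the e15.5 arrays. The growth factor midkine (Mdk) differed by -0.94 ± 0.06, Snai2 by -0.89 ± 0.07, Tcf21 by -0.72 ± 0.08 and the receptor Pdgfra by -0.58 ± 0.06. Another Pdgfra probe set, at 6.88 to 6.92, gave -0.03. Col1a1 (-0.12 ± 0.07) and Acta2 (-0.02 ± 0.07) were close to 0 on their brightest probe sets. Another Col1a1 probe set gave 0.25 and passed the adjusted p. Neural crest and neuron genes had a median of -0.16 with no call among 30, and 11 were lower by adjusted p alone. None of 27 endothelial genes (median -0.05), 32 leukocyte genes (-0.03) or 18 smooth muscle genes (-0.06) was called. The macrophage complement gene C1qa differed by 0.96 ± 0.06 without a call, at 7.02 and 7.08 then 8.01 and 8.01. In the stomach, gut and liver list Vil1 was the single call among 34, and the list mean went from 4.94 and 4.92 to 4.99 and 5.0. Nor was any gene of the spleen list (9 measured) or of the adipose and muscle list (16) called. The largest differences of those lists were those of the neural adhesion molecule Ncam1 (-0.56 ± 0.09), Vwf of endothelium (-0.35 ± 0.08), the tropomyosin gene Tpm1 (-0.33 ± 0.07), the lymphoid chemokine Cxcl13 (-0.60 ± 0.08) and the troponin gene Tnnc1 (0.39 ± 0.09), none called. None of 4 measured sex-linked genes was called, with Kdm5d at -0.22. The mean level of the mesenchyme list was thus lower at the stage where the acinar genes were higher, and its part in the acinar rises was not tested.

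**Figure D4:**
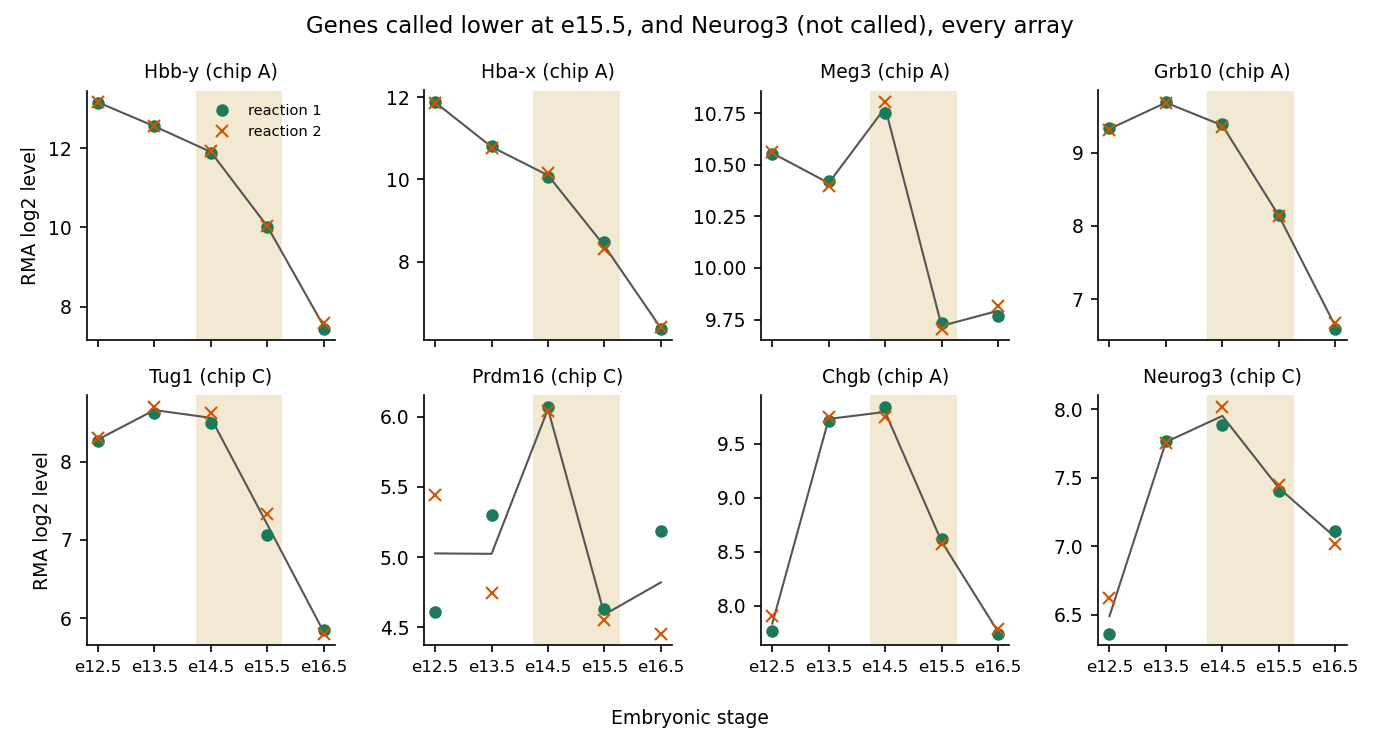
RMA log2 level (vertical) of 7 genes called lower at e15.5 and of Neurog3, which was not called, at 5 stages (horizontal); circles and crosses are the 2 labelling reactions, the line joins stage means, and shading marks e14.5 and e15.5. Hbb-y, Hba-x and Grb10 went on down to e16.5, whereas Meg3 and Prdm16 were highest at e14.5.

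By the call rule no gene changed among 22 Notch, 37 Wnt, 41 TGF-beta, BMP and hedgehog, 36 FGF and growth factor receptor and 23 Hox genes, with medians from -0.11 to -0.02. By adjusted p alone, 10 of the TGF-beta, BMP and hedgehog genes were lower and 1 was higher. In the Wnt list 5 were lower and 1 higher. Over all genes 6.88% were lower and 7.1% higher by this rule. The largest single differences were those of Fgfr2 (-0.67 ± 0.07), a receptor for mesenchymal FGF signals in the epithelium, Hoxa5 (-0.55 ± 0.10), the Wnt ligand Wnt5a (-0.49 ± 0.10), the Notch modifier Lfng (0.47 ± 0.07) and Tgfbr1 (-0.46 ± 0.07). Insig1, a regulator of cholesterol synthesis, was the single call among 20 genes of that pathway (1.12 ± 0.08, from a dim 3.76 and 3.71). Glycolysis (22 genes), heat shock and immediate early genes (25) and the respiratory chain (40) gave no call, with medians of 0.07, -0.11 and 0.16. By adjusted p alone, 13 respiratory chain genes were higher and 0 lower, 7 glycolysis genes higher and 2 lower, and 1 heat shock or immediate early gene higher and 8 lower. Their largest differences were those of Pdk1 (0.53 ± 0.08), which restrains the entry of pyruvate into mitochondria, the co-chaperone gene Dnaja1 (-0.53 ± 0.06) and the complex I subunit Ndufb8 (0.70 ± 0.07).

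To ask whether this day differed from its neighbours, the e14.5 to e15.5 difference was set against the mean of the daily changes before and after, within the same fit. The 3 intervals share pools, so the comparison describes these pools: a pool that stands apart at e14.5 or e15.5 moves both sides of it. Of 36701 probe sets, 25 exceeded the flanking changes upward by at least 1 log2 unit (0.0681%) and 28 downward (0.0763%). Rnase1 exceeded them by 3.05 ± 0.15, Cela3b by 2.16 ± 0.16, Kctd14 by 1.97 ± 0.15, Cela2a by 1.70 ± 0.09 and Cpb1 by 1.62 ± 0.11 (limma, adjusted p from 5.54e-06 to 7.74e-06). The second Cela2a probe set went the other way, at -0.51 against its flanking days, with a change of 2.85 from e15.5 to e16.5. Kctd14, one of the 5 largest rises, read 6.35 and 6.36, then 9.18 and 8.97 (2.71 ± 0.10). The second Kctd14 probe set gave 0.23. Dhrs7, a dehydrogenase of the short-chain family, read 6.57 and 6.60, then 8.99 and 8.90 (2.36 ± 0.07), and exceeded its flanking changes by 1.59. Ang, an angiogenin ribonuclease, went from 6.26 and 6.25 to 8.10 and 8.06 (1.82 ± 0.09), and Rnase4 from 7.60 and 7.41 to 8.92 and 8.75 (1.33 ± 0.12). The annotated intervals of Ang and Rnase4 overlap (chr14:51091077-51102009 and chr14:51091077-51106151), so their probe sets may not tell them apart.

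Downward, Prdm16 (-2.10 ± 0.41) and Meg3 (-1.28 ± 0.09) fell in this interval, and their changes the day before were 1.03 and 0.36. Zg16 (-1.71 ± 0.12) and Prss2 (-1.24 ± 0.10) were below the flanking mean because their changes from e15.5 to e16.5 were 3.86 and 3.14. The neutrophil genes S100a8 and S100a9 changed by 2.84 and 2.78 a day later and differed by -0.22 and -0.23 here. Among the 75 called rises, 62 were larger than both flanking changes, 72 followed a change of the same sign and 68 preceded one. These counts are descriptions, since genes called on this interval are likely to be large on it and the neighbouring intervals share its pools. The same counts over all genes were not taken. The 7 rises followed by a lower level at e16.5 included Smpdl3b (-0.38), Aqp4 (-0.47), Anpep (-0.34) and Sec24d (-0.19).

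**Figure D5:**
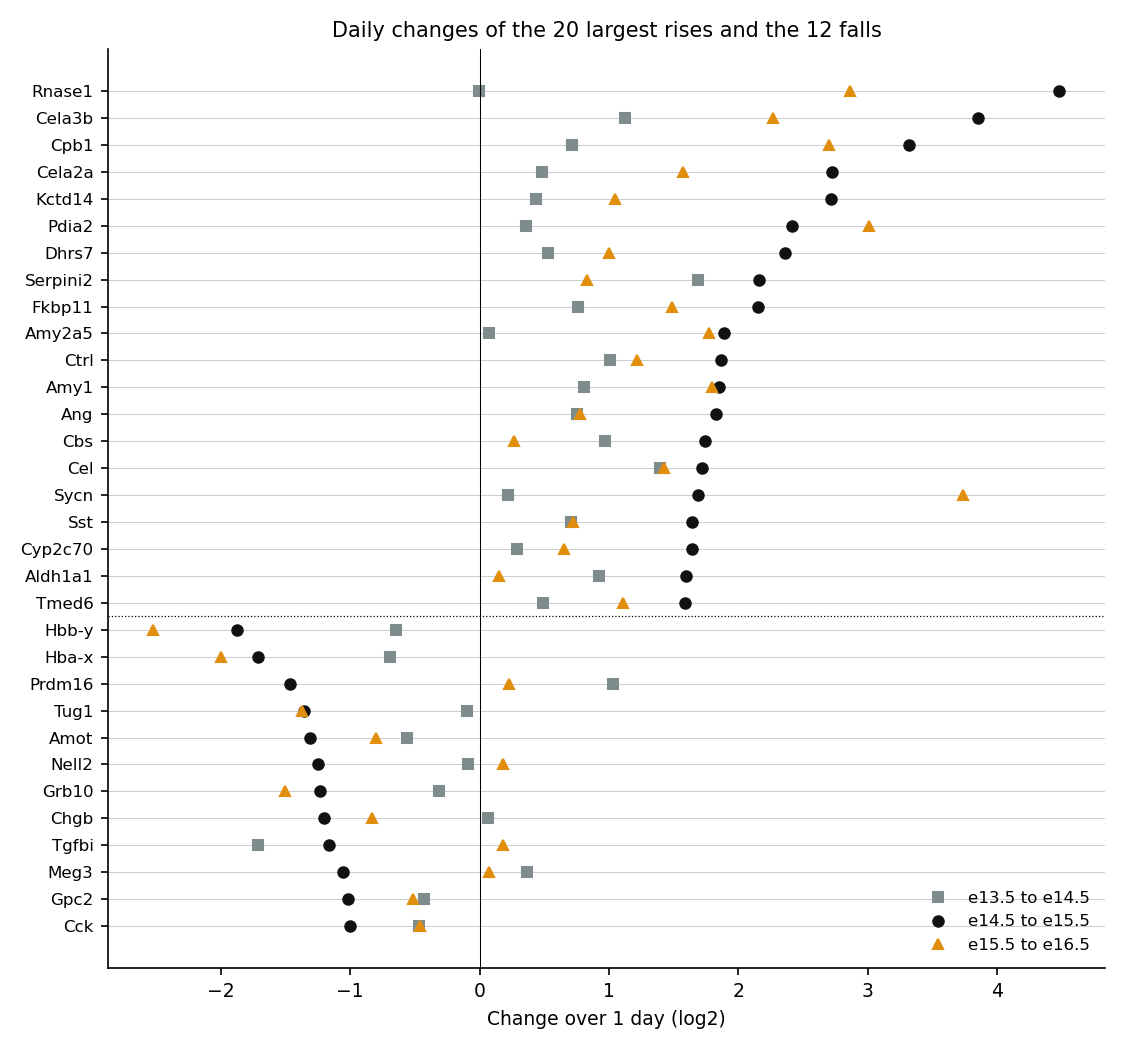
Change over 1 day (log2, horizontal) of the 20 genes with the largest rises and the 12 called falls, for the intervals e13.5 to e14.5 (squares), e14.5 to e15.5 (circles) and e15.5 to e16.5 (triangles). Rnase1 shows the widest gap between circle and square, and for Pdia2 and Sycn the triangle (3.01 and 3.74) lies beyond the circle.

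The labelling spread alone set the p-values, so the calls were also fitted on stage means with a quadratic curve in embryonic day, whose residuals take in the pools. That fit assumes a smooth course and shrinks a step. It kept 30 of the 75 higher and 3 of the 12 lower genes. Rnase1, Cela3b, Cpb1 and Cela2a kept their calls, with fitted differences of 2.65, 2.49, 2.35 and 1.67. Bhlha15, Herpud1, Dnajc3, Edem2, Cbs, Asns, Meg3, Tug1, Prdm16, Amot and Chgb were among those that lost them. Leaving out each array in turn kept 65 of the 75 and 10 of the 12. Of the 35 called risers with another probe set, 18 had one that passed the adjusted p in the same direction, 0 had one that passed in the opposite direction and 17 had none that passed. For 9 of these 17 every other probe set was below its chip median at e15.5. Among 8 such fallers the counts were 4, 0 and 4, and for the last 4 every other probe set was below that median. Of the 75 risers 17 were below the chip median at e14.5, a mark used here for dim probe sets because the files hold no detection calls.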

How the data were processed

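Total RNA of pooled dorsal pancreata was biotin labelled and hybridised to 3 chips, with 10 arrays each, per the labels' protocols. The deposited values are log2 values made by the authors with RMA, per the submitters' processing notes; its version and settings are not given in the sources used here. RMA removes overall differences between arrays, and no detection calls came with the values. The log2 scale was read from the values.

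Of 36701 probe sets, 29131 had 1 gene symbol, 724 several and 6846 none in the platform annotation. Of those with 1 symbol, 29044 were matched through Entrez IDs to RefSeq symbols. Each chip was fitted on its own with limma 3.58.1 in R 4.3.3, stage as a factor over 10 arrays, with p-values adjusted by Benjamini-Hochberg over the 3 chips together. The genes named were the 15 largest rises, the called falls, landmark genes, up to 4 called members of each list (or else the member with the largest difference) and the 5 largest departures from the flanking days in each direction; other members are given where a list is described. The comparison, gene lists and tests were chosen with earlier results of these data known. The fit was tested on simulated data. Same-numbered reactions of e14.5 and e15.5 had deviations that correlated at 0.033, 0.025 and 0.071 on chips A, B and C, so the numbers were not used as pairs. Alternatives covered scaling, the fold minimum, dim probe sets, the arrays fitted, the adjustment, the prior variance and the source of the spread. The 2 arrays per stage and chip limit the precision. With 1 pool per stage, the spread between pools was not measured.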

Additional observations from a re-analysis of the deposited data

Results flagged for a closer look

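For 22 genes the change from e14.5 to e15.5 differed by at least 1 log2 unit from the mean of the flanking daily changes. They also passed the adjusted p of the test of that difference within the limma fit. The intervals share pools, so 1 unusual pool would enter each of these values.

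Upward, the digestive enzymes were Rnase1 at 3.05, Cela3b at 2.16, Cela2a at 1.70 (its second probe set at -0.51) and Cpb1 at 1.62. Kctd14 stood at 1.97 and Dhrs7 at 1.59. Genes of protein folding, export and oxidation in the secretory pathway were Sec24d (1.16), Fkbp11 (1.03) and Qsox1 (1.01). Metabolic enzymes were Cyp2c70 (1.17), which was dim at both stages, Cbs (1.12) and Aldh1a1 (1.06). The others were Smpdl3b (1.18), Ang (1.06) and the stress-induced Ddit4 (1.01).

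Downward, Prdm16 stood at -2.10, Nell2 at -1.29 and Meg3 at -1.28, each called lower at e15.5. Zg16 (-1.71), S100a9 (-1.39), S100a8 (-1.34) and Prss2 (-1.24) were not called over this day and had their larger changes from e15.5 to e16.5.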

How the results depend on the processing

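Against 108 probe sets higher and 26 lower at e15.5, and 25 above and 28 below their flanking days, a 1.5-fold minimum gave 336, 241, 312 and 198. A 4-fold minimum gave 13, 0, 3 and 2, and the adjusted p of limma with no fold minimum gave 1814, 2108, 653 and 375. Stage means with a quadratic in embryonic day gave 55 higher and 5 lower, and that fit cannot give the comparison with flanking days. Leaving out each array in turn gave 107 to 112 higher, 25 to 32 lower, 24 to 33 above and 28 to 33 below. A replicate block gave 108, 26, 25 and 28, so this pairing by reaction number moved no count. The other alternatives kept each count within 1.5 times. No gene called in the main fit changed sign, and the signs of genes not called were not compared. The array left out decided the calls of Clu, Fam81a, Gstt2, Mt1 and Sostdc1 (without e14.5 reaction 1), Cck and Gpc2 (without e14.5 reaction 2), 1700019D03Rik, Gstm3, Hid1 and Reep5 (without e15.5 reaction 1), and Aqp8, Cck, Fam81a and Sostdc1 (without e15.5 reaction 2). Ptf1a gained a call without e14.5 reaction 2. With no detection calls, differences of dim probe sets may be understated.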

Other observations

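Of the 75 genes called higher, 36 stood in a gene list. The genes below stood in none, and were chosen after their values were seen. Egln3, a prolyl hydroxylase of the oxygen-sensing pathway, read 6.22 and 6.28 at e14.5, then 7.45 and 7.59 at e15.5 (1.27 ± 0.09). Ddit4, an inhibitor of mTORC1 signalling, read 6.19 and 6.18, then 7.32 and 7.40 (1.17 ± 0.07), and Ndrg1 read 8.02 and 7.99, then 9.14 and 9.15 (1.14 ± 0.06). The stages did not overlap for these genes. That held for all 87 called genes, as a 2-fold minimum makes likely, and does not set these apart.

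The glutathione transferase Gstm1 went from 10.66 and 10.66 to 11.89 and 11.77 (1.17 ± 0.07), Gstm3 rose by 1.02 ± 0.07 and Gstt2 by 1.05 ± 0.07. Of the other Gstm1 probe sets, 3 above their chip medians gave -0.04, -0.03 and -0.005, and another gave 0.62. Another Gstm3 probe set gave 0.26. The called Gstm1 and Gstm3 probe sets are of a shared-sequence design, so they may read each other's transcripts. Aldh1a1, a retinaldehyde dehydrogenase, went from 7.10 and 7.21 to 8.85 and 8.64 (1.59 ± 0.13), and the metallothionein gene Mt1 rose by 1.03 ± 0.07. A second Aldh1a1 probe set, which was dim, gave -0.04. A second Mt1 probe set, at 8.32 to 8.48, gave 0.14 and did not pass. Gnmt, glycine N-methyltransferase, rose by 1.26 ± 0.08 from a dim level and changed by a further 2.99 to e16.5. Rap1gap, an inactivator of the GTPase Rap1, rose by 1.39 ± 0.07.

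Of the called probe sets, 14 that were higher and 7 that were lower had several symbols or none. Probe set 93208_at, with several symbols, read 4.94 and 4.93, then 9.25 and 9.24 (4.31 ± 0.08), the largest rise after Rnase1. The unnamed probe set 102677_at rose by 2.61 ± 0.08. The unnamed probe set 102348_at fell from 7.21 and 7.08 to 5.44 and 5.62.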
